A study of Haemaphysalis flava with 2 samples.

Results

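Longipain is a cysteine protease of the tick midgut, and its transcript was followed here through the unigenes (assembled transcripts or fragments of them) that the authors' annotation tables describe as longipain. Of 65535 unigenes with deposited read values, 2 carried that description, Contig8240 and Contig8241. They were chosen by description, with their levels already known, so every level below is a description and none is a test. RNA came from midguts of the hard tick Haemaphysalis flava in 2 states, fully engorged (FE) and partially engorged (PE). The labels give no strain, sex, age or time since attachment, and they give 30 dissected midguts per state without saying how many entered a library. Each state was represented by 1 library of polyadenylated RNA, so no value has a replicate check, and the differences below cannot be set against the variation between ticks.

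Longipain was described in Haemaphysalis longicornis, where this cathepsin B-like enzyme of the midgut epithelium takes part in blood digestion and has been linked to the killing of Babesia parasites. Ticks digest hemoglobin inside midgut cells, in acid vesicles. Aspartic proteases (cathepsin D), legumain and the papain-family cathepsins B and L cut the protein and its larger fragments. Cathepsin C and exopeptidases trim the fragments, and cystatins inhibit the papain-family enzymes. Papain-family enzymes are made as inactive precursors, with a signal peptide and a propeptide ahead of the catalytic domain.

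Both of these longipain unigenes had reads in FE, 1046 together, against 0 in PE. Contig8240 had 519 reads in FE, against 0 reads in PE. That is 37.3 RPKM (reads scaled to unigene length and library size) in FE, with a 95% counting interval of 34.1 to 40.6, against 0 RPKM in PE. At the FE level the PE library would have held 631 reads of this unigene. Contig8241 had 527 reads in FE, against 0 reads in PE, or 42.3 RPKM in FE (38.7 to 46.0), against 0 RPKM in PE. For this unigene the FE level would have given 641 reads in PE. Intervals and floors cover counting error only, since PCR copies could not be told from separate molecules.

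A count of 0 allows up to 3 reads, which in PE is 0.177 RPKM for Contig8240 and 0.198 RPKM for Contig8241. Against that floor, taken per unigene, Contig8240 was at least 210-fold higher in FE than in PE and Contig8241 at least 214-fold higher. That floor leaves out the counting error of the FE reads, and the lower limits of the 95% exact intervals of the count ratio were 171-fold for Contig8240 and 173-fold for Contig8241. For their summed reads the floor of 3 reads over the sum gave at least 424-fold higher in FE, and the exact lower limit was 344-fold. On the log2(RPKM + 1) scale, which understates ratios against 0, the difference FE minus PE was 5.26 for Contig8240 and 5.43 for Contig8241. Both met the rule of size used here to call a unigene, at least 2-fold on that scale with the 95% exact interval of the count ratio excluding 1, among unigenes of at least 1 RPKM in a library. The background is large, since 25.7% of the 44982 unigenes that passed this filter were called higher in FE and 11.1% lower. The split of these calls moved with scaling: with the authors' RPKM 69.8% of the calls were on the higher side in FE, and 53.6% with a TMM factor (edgeR's trimmed mean of M-values). With the TMM factor the log2 differences of the longipain unigenes were 4.88 and 5.05, their direction being fixed by the 0 in PE. Both passed the filter only through the FE library.

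The authors' deposited table marks both unigenes DOWN, that is, lower in PE. Its PE over FE ratio is 2.68e-07 for Contig8240 and 2.37e-07 for Contig8241, which come from replacing the PE value of 0 by 1e-05 and do not measure the size of the difference. The authors' deposited table gives a false discovery rate of 1.88e-09 for Contig8240 and 6.83e-11 for Contig8241, from a test not given in the sources used here. There, 5.75% of the 65535 unigenes were DOWN at a false discovery rate of at most 0.05.

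The annotation files placed the unigenes on different stretches of 1 protein. In the UniProt table both had the H. longicornis longipain of 341 residues as their hit. Contig8240 is 336 nucleotides long, and its nucleotides 250 to 336 aligned to residues 2 to 30 with 82.76% identity. This is the start of the protein, where the signal peptide of a secreted protease lies, and 249 nucleotides of the unigene preceded the aligned stretch. Contig8241 is 301 nucleotides long, and its nucleotides 3 to 299 aligned to residues 24 to 122 with 90.91% identity, nearly its whole length. The alignments shared 7 residues, 24 to 30, and together covered 121 of the 341 residues (35.5%), at the amino-terminal side.

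A further unigene, Contig3625, was described as longipain in both the Nr and the UniProt tables. It is 823 nucleotides long and aligned, on its reverse strand, to residues 116 to 341 of the same protein with 96.02% identity. Residues 116 to 122 were shared with Contig8241, again 7 residues. The 3 alignments together covered 340 of 341 residues. The expression table used here holds no row for Contig3625, so its levels were not analysed here. A missing row does not show an absence of reads. The values above speak for the amino-terminal part of the protein alone. Whether the 3 unigenes are pieces of 1 transcript was not tested, as their sequences were not used here.

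**Figure D1:**
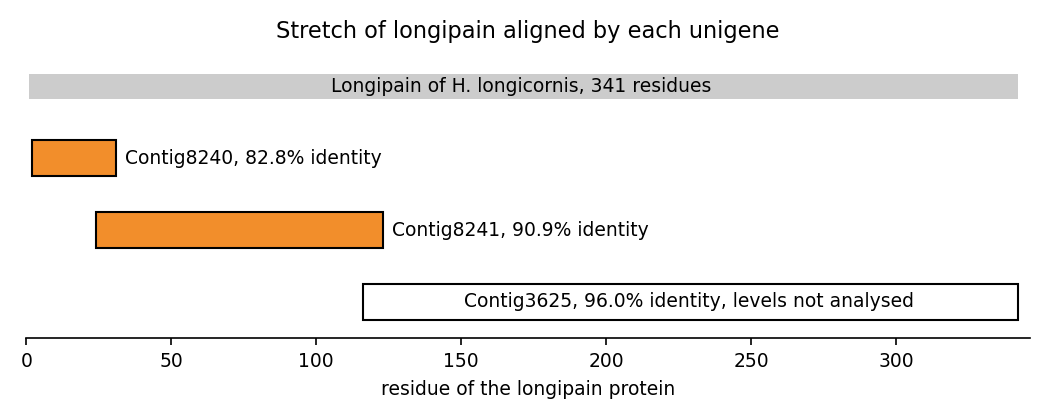
Stretch of the H. longicornis longipain protein (grey, 341 residues) aligned by each unigene, from the authors' UniProt table, along the residue number. Orange bars are the unigenes with read values, the open bar is Contig3625, and each neighbouring pair shares 7 residues.

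The other annotation files differed in how much they said of each unigene. Contig8241 had a Nr hit, a putative longipain of the tick Ixodes scapularis, with 60.2% identity over 98 residues, whereas Contig3625 matched the same Ixodes protein with 83.63% identity. Contig8240 had no row in the Nr table and none in the KOG table (classes of eukaryotic orthologous groups), so its name rests on 29 aligned residues in UniProt. Contig8241 had 4 KOG hits. The best was the cathepsin L class (score 115, 34 positions, 50% identity), followed by the cathepsin F class (score 106) and a class of predicted cysteine proteinases named TIN-ag (score 103). The last, a predicted RNA-binding protein with a score of 95, lay on the opposite strand. Both unigenes carried the same 6 GO terms, as did Contig3625. These were hydrolase, peptidase, cysteine-type peptidase and cysteine-type endopeptidase activity, proteolysis and regulation of catalytic activity, terms held by 978, 280, 148, 88, 948 and 35 unigenes of the GO table.

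Within the FE library the longipain unigenes lay close together. Contig8241 read 1.13 times the level of Contig8240 per length, with an exact counting interval of 1.002 to 1.282. Contig8241 ranked 3188th and Contig8240 3708th of the 65535 unigenes with read values by FE level (percentiles 95.1 and 94.3). They are short beside the median unigene of 544 nucleotides: 0.182% of unigenes were shorter than Contig8241 and 6.52% shorter than Contig8240.

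Among papain-family unigenes Contig8241 and Contig8240 were of middle rank in FE, at 42.3 and 37.3 RPKM, against 0 RPKM in PE. The family was taken among unigenes with read values only. It comprised those described as longipain, cathepsin B, cathepsin C, cathepsin L or a related cathepsin, papain or cysteine protease. It held 25, of which 8 were calcium-dependent cysteine proteases, which are cytosolic enzymes of the calpain type and were left out of the ranking. Of the other 17, Contig8241 and Contig8240 held ranks 9 and 10 by FE level. A unigene described as a cathepsin-like protease (Contig241) was missed by the list's words; it had 351 RPKM in FE against 221 in PE and was called neither. With it added, after its values were seen, the ranks were 10 and 11 of 18. Cathepsin B (Contig5046) stood first in FE, at 569 RPKM in FE against 829 in PE. In FE the neighbour above longipain was Contig16937, with 54.9 RPKM (51.9 to 58.1). It is a cathepsin L by its Nr description and a putative cathepsin C by UniProt. Its interval did not overlap those of the longipain unigenes. The neighbour below was a cathepsin C unigene (Contig930) with 20.1 RPKM (18.2 to 22.2). In PE 1 other unigene of the 17 had no reads, a cathepsin B-like unigene (Contig70161) with 15 reads in FE.

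**Figure D2:**
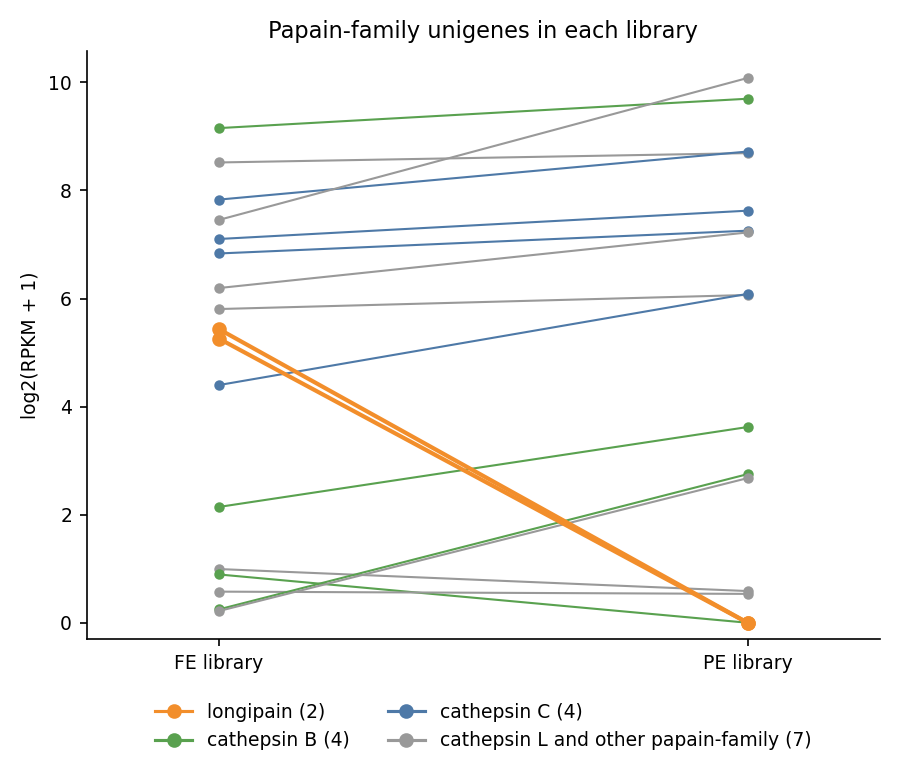
Level of 17 papain-family unigenes on the log2(RPKM + 1) scale in FE (left) and PE (right), 1 line per unigene, with no error bars because each state has 1 library. The longipain points lie at 5.26 and 5.43 in FE and at 0 in PE, while no other unigene with over 1 RPKM in FE lies at 0 in PE.

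The 2 longipain unigenes made up 3.88% of the summed RPKM of the 25 papain-family unigenes in FE (3.66% to 4.11%, counting error of the longipain reads), against 0% in PE, where 3 reads per unigene would have been 0.0101%. Summed RPKM counts a transcript once for each of its fragments, so the share depends on how the transcripts were assembled. It was 1.79% of the reads themselves. The remaining members of the 25, calcium-dependent enzymes included, summed to 1970 RPKM in FE against 3712 in PE. Without those enzymes the remaining members summed to 1738 RPKM in FE against 3398 in PE, and the longipain share in FE was 4.38%.

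None of the other papain-family cathepsins was called higher in FE. Without longipain and the calcium-dependent enzymes 15 unigenes remained, of which 12 passed the filter; 6 were lower in FE, 6 were neither and 0 were higher, with a median log2 ratio of -0.96. Of all 44982 unigenes that passed, 25.7% were higher in FE and 11.1% lower, with a median of 0.36. No p is given for such counts, since there is 1 library per state. Contig2606, a cysteine proteinase, was the most abundant member in PE, with 7464 reads and 174 RPKM in FE, against 56353 reads and 1082 RPKM in PE, 6.21-fold lower in FE (6.06 to 6.36). Contig71378, a cathepsin L, had 72.2 RPKM in FE against 148 in PE, 2.05-fold lower in FE (1.92 to 2.20). Of the 8 calcium-dependent enzymes, 2 were higher in FE and 4 lower; the one with the most RPKM, Contig5542, had 129 in FE against 103 in PE. The midgut cysteine proteinase Contig1702 was called neither, with 366 RPKM in FE against 412 in PE.

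Each cathepsin B and cathepsin C unigene that passed the filter read lower in FE than in PE, though most of the cathepsin C unigenes stayed short of the rule. Of 3 cathepsin B unigenes that passed, 2 were lower in FE and 1 was neither. Contig47089 had 3.42 RPKM in FE against 11.3 in PE, 3.31-fold lower in FE (2.81 to 3.91). Contig74336 had 3 reads in FE against 112 in PE, 30.7-fold lower in FE (10.2 to 151). Of 4 cathepsin C unigenes 1 was lower in FE, Contig930, at 20.1 RPKM in FE against 66.9 in PE. All 4 share the UniProt description of a putative cathepsin C, and whether they are fragments of 1 transcript was not tested. The most abundant, Contig3659, had 227 RPKM in FE against 421 in PE and was called neither. The cathepsin C unigene with the smallest difference, Contig955, had 113 RPKM in FE against 152 in PE. Of 21 whose best KOG hit was the cathepsin L, cathepsin F or TIN-ag class, longipain left out, 15 passed, 5 were lower in FE and 0 higher. Of 74 with the GO term cysteine-type endopeptidase activity, a wider group with longipain left out, 69 passed. Of these, 17 were higher in FE, 14 lower and 38 neither, with a median of 0.08. In this wider group 2 unigenes that passed had no PE reads, and the largest log2 difference was 5.15. The shares over all unigenes that passed were 25.7% higher and 11.1% lower. These last groupings were chosen after the values were seen.

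The other enzymes of hemoglobin digestion were mixed. Of 5 legumains, which cut after asparagine and can process cathepsin precursors, 2 were higher in FE, 1 lower and 2 neither. Among all unigenes that passed, 25.7% were higher and 11.1% lower, and 5 legumains are too few to set against these shares. Contig3807, the most abundant, had 73.4 RPKM in FE against 306 in PE, 4.16-fold lower in FE (4.001 to 4.334). Contig3806 was called neither, with 84.2 RPKM in FE against 64.6 in PE. Contig4051, whose UniProt hit is a tick salivary legumain, was like longipain in having 1291 reads (19.9 RPKM) in FE, against 0 reads in PE, at least 523-fold higher in FE by the floor, with an exact lower limit of 425-fold. Contig4052, with the same UniProt description, had 914 reads in FE against 2 in PE, 556-fold higher in FE (153 to 4597). Both of these legumains were named after their values were seen.

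Of 9 aspartic proteases that passed, 6 were higher in FE and 0 lower, with a median of 1.11. The shares over all unigenes that passed were 25.7% higher and 11.1% lower. With a TMM factor or median-centring 4 aspartic proteases were higher and 0 lower. Contig10076 had 36.6 RPKM in FE against 0.625 in PE, 58.5-fold higher in FE (45.8 to 75.8). The most abundant, Contig81, had 353 RPKM in FE against 449 in PE and was called neither. Exopeptidases (serine carboxypeptidases and leucine aminopeptidase) had 1 of 11 higher, 2 lower and 8 neither, with a median of 0.04. First_Contig710, their most abundant unigene, had 66.6 RPKM in FE against 84.6 in PE. Contig21431 was 2.16-fold lower in FE (1.94 to 2.41), at 32.2 RPKM in FE against 69.6 in PE. Contig4368, also a serine carboxypeptidase, had 19.2 RPKM in FE against 12.9 in PE, short of the rule.

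Cystatins, inhibitors of papain-family enzymes, had 8 of 11 unigenes higher in FE, 1 lower and 2 neither, with a median of 1.53. With a TMM factor 6 were higher and 2 lower. Contig3911 had 5293 reads in FE against 4 in PE, or 156 RPKM in FE against 0.0970 in PE, 1610-fold higher in FE (628 to 5910). Contig3042, the most abundant, had 565 RPKM in FE against 2352 in PE, 4.16-fold lower in FE (4.07 to 4.25). A secreted cystatin (Contig12874) had 146 reads in FE, against 0 in PE, at least 59.2-fold higher in FE by the floor, with an exact lower limit of 47.5-fold. Over the 7 lists without longipain, 56 of 64 unigenes passed, 19 were higher in FE, 14 lower and 23 neither, with a median of 0.27. With a TMM factor or median-centring 14 were higher and 17 lower. With the authors' RPKM and without the calcium-dependent enzymes, a choice made after the values were seen, 17 were higher and 10 lower. Over all unigenes that passed, 25.7% were higher in FE and 11.1% lower. Among the 56, Contig4051 and Contig12874 were the only unigenes with no PE reads.

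**Figure D3:**
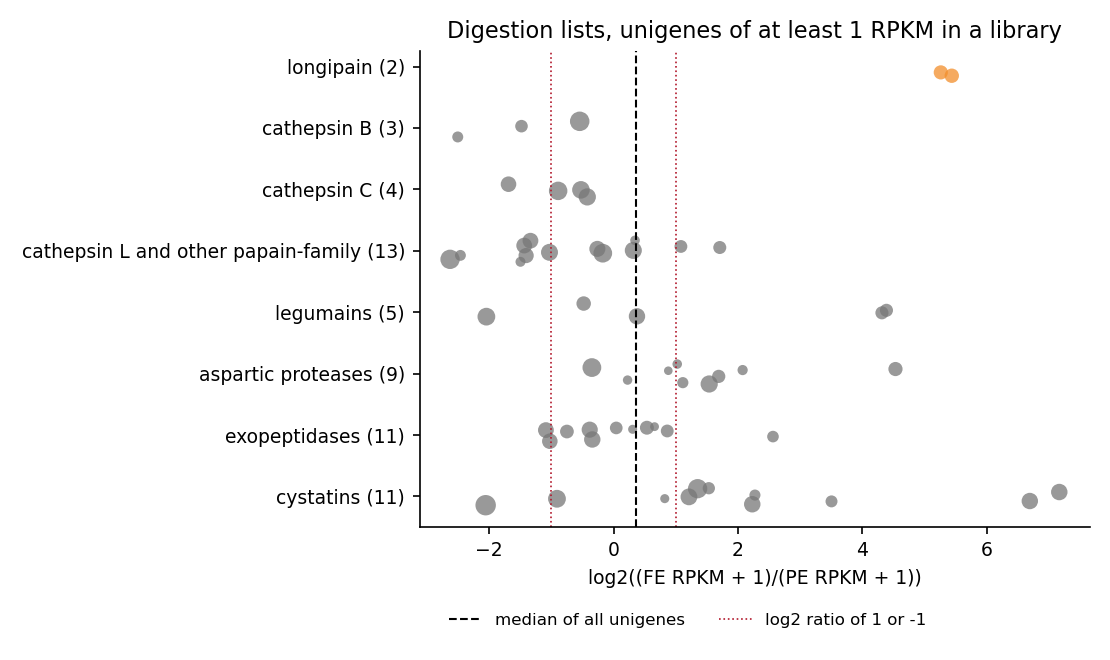
Difference FE minus PE on the log2(RPKM + 1) scale for every unigene of at least 1 RPKM in a library, by list, with the number of unigenes in parentheses and larger points for higher mean levels. Vertical scatter within a list is for legibility. The longipain unigenes lie at 5.26 and 5.43, right of all cathepsin B, cathepsin C and cathepsin L unigenes, and 2 cystatins lie further right.

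A level of 0 in PE beside a level of this size in FE was rare in the table. Of the 44982 unigenes that passed the filter, 1.43% (642) had no reads in PE and at least 1 RPKM in FE, and in the other direction 353 had no reads in FE and at least 1 RPKM in PE. Of 4758 unigenes with at least 30 RPKM in FE, a bound chosen after the values were seen, 8 (0.168%) had no PE reads. Contig8241 was the second and Contig8240 the sixth of these 8 by FE level. The first was a fatty acid elongase (Contig7039), with 831 reads and 60.0 RPKM in FE, against 0 in PE. The unigenes without PE reads had a median length of 440 nucleotides, against 634 nucleotides for all that passed.

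**Figure D4:**
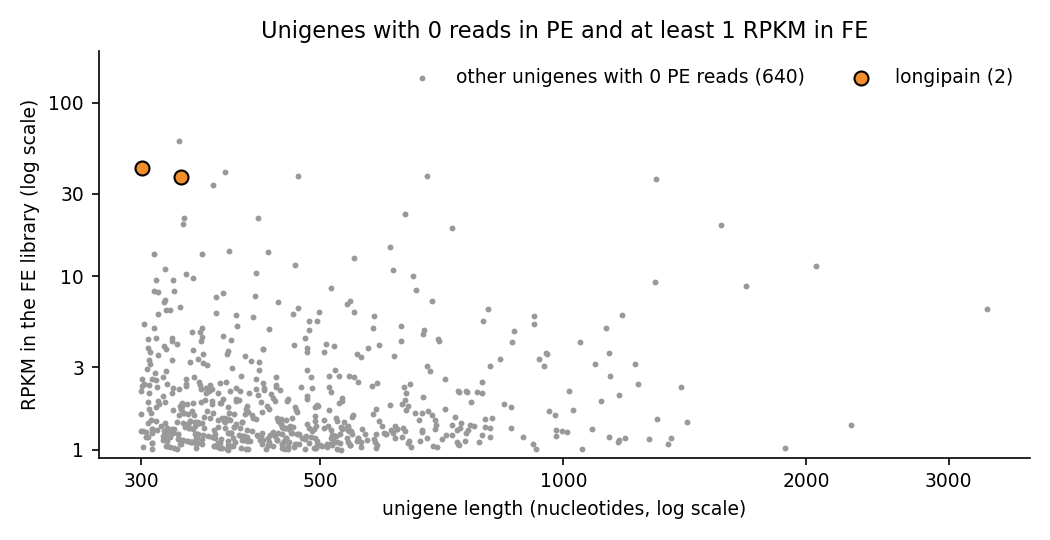
RPKM in the FE library against unigene length, both on log scales, for the 642 unigenes with 0 reads in PE and at least 1 RPKM in FE. The longipain unigenes (orange) lie at the short end, at 301 and 336 nucleotides, and at 42.3 and 37.3 RPKM near the top.

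The described unigenes nearest to longipain in level over the 2 libraries were found by distance on the log2(RPKM + 1) scale among 14339 candidates. For both longipain unigenes the nearest was Contig5178, described as the topoisomerase-interacting protein BTBD1, with 1967 reads (36.5 RPKM) in FE, against 0 reads in PE. A caspase-9-like unigene (Contig4167) came next, with 4757 reads (37.1 RPKM) in FE against 11 reads (0.0705 RPKM) in PE. Both also had among their nearest 5 a serpin-3 (Contig976), a serine protease inhibitor, with 46.3 RPKM in FE against 0.138 in PE, and a unigene described as the splicing factor Prp4 (Contig2590), with 33.8 RPKM in FE against 0.0278 in PE. UniProt describes Contig2590 otherwise, as a putative angio-associated migratory cell protein. The remaining places went to a zinc finger protein (Contig8107) for Contig8240 and to a second BTBD1 unigene (Contig12025) for Contig8241. A likeness over 2 libraries says only that the levels were close.

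The dissected tissue was checked by description words. All 16 unigenes with midgut or peritrophic descriptions had reads in both libraries, with 6 higher in FE and 8 lower. They summed to 514 RPKM in FE against 2008 in PE. The largest of the 16 in FE was the midgut cysteine proteinase Contig1702, at 366 RPKM in FE against 412 in PE. It is also 1 of the papain-family unigenes above, so this sum is not independent of them. Salivary gland descriptions were held by 61 unigenes, which summed to 5750 RPKM in FE against 18235 in PE; of 52 that passed, 27 were higher in FE and 11 lower, and 6 of the 61 had no PE reads, at up to 9.85 RPKM in FE. Muscle descriptions (73 unigenes) summed to 3679 RPKM in FE against 4503 in PE, with 8 of 59 higher and 5 lower. Descriptions of nervous tissue (30 unigenes) summed to 110 RPKM in FE against 49.5 in PE, with 13 of 20 higher, 0 lower and 5 of the 30 without PE reads. The 3 ovary unigenes summed to 342 RPKM in FE against 154 in PE, and 0 unigenes matched host hemoglobin. For comparison, 25.7% of all unigenes that passed were higher in FE and 11.1% lower. The groups rest on description words alone, which do not show that a unigene is specific to a tissue. The part of these tissues in the longipain difference was not tested. In bulk tissue, fewer cells that make longipain and less longipain RNA per cell cannot be told apart.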

How the data were processed

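Per the labels' protocols, polyadenylated midgut RNA went into 1 TruSeq library per state. The submitters' processing notes name CASAVA 1.8. What assembled, aligned, counted and searched the reads was not given in the sources used here. The authors deposited read counts per unigene and RPKM values, per the file headers. The implied library totals, 41432770 reads in FE and 50397332 in PE, were taken from counts, RPKM and lengths, and the listed counts made up 86.8% and 87.0% of them. The annotation tables name unigenes without read values (3321 of 23395 in Nr), which were not analysed here. Lists, ranks and shares therefore cover only the unigenes with read values and may be incomplete. The authors' comparison table holds the ratio of PE over FE, false discovery rates and p-values. The authors deposited percent identity, alignment score and positions for each database hit.

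Ratios of counts carry exact (Clopper-Pearson, conditional binomial) 95% intervals, single levels exact Poisson intervals. A pseudocount of 1 RPKM was used on the log2 scale. Lists are words on the Nr description, or UniProt where Nr has none. From each list the most abundant unigene was named, with the highest and lowest ratio among means of at least 10 RPKM. The longipain unigenes, the lists and the rules were chosen with earlier results of these data known. The rule of size was tested on simulated data for FE against PE: among 41251 unigenes that passed the filter, 96 of 100 with a simulated 3-fold change were called, as were 100 of 100 with a 6-fold change and 0 of 41051 without one. The simulation drew counting error only and holds no variation between libraries or ticks. Changed unigenes were drawn from means of at least 2 RPKM. Python 3.11.15, scipy 1.17.1 and edgeR 4.0.16 (for the TMM factor) were used. The alternatives were other pseudocounts, filters, scalings and family lists.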

Additional observations from a re-analysis of the deposited data

How the results depend on the processing

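With 0 PE reads the direction of both longipain unigenes is fixed under any pseudocount or scaling, so the alternatives move only the size. The log2 differences of Contig8240, Contig8241 and the sum were 8.55, 8.73 and 8.63 with a pseudocount of 0.1 RPKM, 3.08, 3.24 and 3.16 with 5 RPKM, and 5.46, 5.64 and 5.54 when scaled by the listed counts, which raises all RPKM values. The sum was 5.34 with the authors' RPKM, 4.96 with a TMM factor and 4.98 when median-centred. The FE share of 3.88% was 4.84% without unigenes named only cysteine protease and 1.79% in raw counts. In alternatives chosen after seeing the data it was 4.38% without calcium-dependent enzymes and 3.31% with a cathepsin-like protease (Contig241) added.

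List counts are small. With a TMM factor or median-centring 2 cystatins and 2 cathepsin C unigenes were lower, and 1 unigene of the full cathepsin L list was higher. With a pseudocount of 5 RPKM 1 cathepsin B and 1 exopeptidase unigene were lower, and 3 aspartic proteases were higher. So was 1 unigene of the full cathepsin L list, a calcium-dependent enzyme. The filter at 5 RPKM also left 3 aspartic proteases higher, and a pseudocount of 0.1 RPKM gave 2 exopeptidases higher. The cathepsin L list had 2 higher and 7 lower with calcium-dependent enzymes, 0 and 3 without. Over all unigenes 4743 were higher and 2057 lower with a pseudocount of 5 RPKM, 7640 higher with a TMM factor, and 7437 higher and 3103 lower with the 5 RPKM filter. Scaling changed the balance of calls, and the cause was not tested. No paired analysis was possible because each state has 1 library.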

Other observations

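In the authors' deposited table the p-values of unigenes without PE reads followed the whole-number part of the FE RPKM, not the reads. Contig8240, with 519 reads and 37.3 RPKM in FE, and Contig6760, with 1065 reads and 37.9 RPKM in FE, share the p-value 3.11e-11 in the authors' deposited table. Contig4051, with 1291 reads, and Contig22275, with 575 reads, have 19.9 and 19.0 RPKM in FE and share the value 6.99e-06 in the authors' deposited table. Over the 642 unigenes with no PE reads and at least 1 RPKM in FE, the whole-number part of the FE RPKM took 25 values, and within each of the 25 all unigenes had 1 p-value. Grouped by the rounded RPKM, 12 of 26 values had 1 p-value. A value held by only 1 unigene, such as 60 or 42, had 1 p-value of necessity in both groupings. For short unigenes such as those of longipain, a given RPKM rests on fewer reads than for long ones, and in this group the authors' p-value did not differ with that number.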
